A study of Mus musculus with 18 samples.

Results

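The tuft cell gene set holds 10 genes: the transcription factor genes Pou2f3 and Gfi1b, the succinate receptor gene Sucnr1, the cation channel gene Trpm5, the kinase gene Dclk1, the actin-binding protein gene Avil, the interleukin 25 receptor gene Il17rb, the eicosanoid enzyme genes Alox5 and Ptgs1, and the cytokine gene Il25. The rule that picks them names symbols and uses no measured value, although earlier results of these data were known when the set was chosen, and each was read from the array probe set annotated with that symbol alone. Of the 10, 9 were measured among 22180 genes in all. The expression of Ptgs1 was not analysed here, and only its promoter was searched. Alox5 had 2 such probe sets, of which the one with the higher mean over all arrays was used.

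Tuft cells are rare chemosensory cells of the gut epithelium, and in mice they do not form without Pou2f3. They sense luminal signals such as succinate through Sucnr1, and a rise of calcium then opens the channel Trpm5. They release IL-25, which makes group 2 innate lymphoid cells secrete IL-13, and IL-13 in turn drives progenitors of the crypt towards tuft and goblet cells.

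The study measured gene expression in the ileum of mice 21 days after an allogeneic bone marrow transplant, with 1 whole-transcript array per mouse. Recipients were B10.BR mice, 8 to 12 weeks old at transplant, which received 11 Gy of total body irradiation a day before 5000000 T cell depleted marrow cells of C57Bl/6 donors. T cell mice were also given 2000000 purified donor T cells and develop graft-versus-host disease, and marrow-only mice were not. Indole-3-carboxaldehyde (ICA), a tryptophan metabolite of gut bacteria, was given at 150 mg/kg by daily gavage from the day before transplant, or its vehicle of DMSO, PEG400 and citric acid. The groups were 5 ICA-treated T cell mice, 4 vehicle-treated T cell mice, 5 ICA-treated marrow-only mice and 4 vehicle-treated marrow-only mice. All 18 mice were irradiated and carried donor marrow, so no unirradiated ileum was measured, and blood-derived cells of the ileum could stem from host or donor.

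Values are log2 signals. The array medians lay between 6.47 and 6.51, and array pairs correlated over all genes with r between 0.978 and 0.993. The arrays of T cell ICA mouse 1 and marrow-only ICA mouse 1 deviated most from their group means over all genes (SD 0.245 and 0.244), and without both arrays the counts of members called stayed at 0 in all 6 comparisons. The labelled tissue was checked on 12 epithelial genes such as Epcam and Vil1, whose mean signal lay between 10.97 and 11.13 in every mouse. In a piece of whole ileum, fewer tuft cells and less of these RNAs per tuft cell cannot be told apart.

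Promoters are shown because the members varied together between mice and because Pou2f3 belongs to the POU family, whose members bind the octamer motif ATGCAAAT. RefSeq promoters (assembly GRCm38.p6, 250 bases before to 50 after an annotated start) were held for 8 of the 10 genes, all but Il25 and Pou2f3. The octamer, searched on both strands (ATTTGCAT on the other), was found in 1 of the 9 promoters of these genes (Dclk1 has 2), that of Sucnr1, 48 bases before the start, and in 1.74% of all 32851 promoters. A looser form, ATGCNAAT, which takes in the octamer, was found in 3.15% of all promoters. In 25 further genes known from tuft cells, 22 promoters of 21 genes were held and 3 carried the octamer, namely those of Hpgds, Kctd12 and Itpr3. The 250 bases before the start are printed 5′ to 3′ on the strand of the gene for Sucnr1 (chr3:60081619-60081868, plus strand), for Hpgds (chr6:65144731-65144980, minus strand) and, as a member with no match, for Trpm5 (chr7:143094643-143094892, minus strand), with the octamer in capitals.
Sucnr1: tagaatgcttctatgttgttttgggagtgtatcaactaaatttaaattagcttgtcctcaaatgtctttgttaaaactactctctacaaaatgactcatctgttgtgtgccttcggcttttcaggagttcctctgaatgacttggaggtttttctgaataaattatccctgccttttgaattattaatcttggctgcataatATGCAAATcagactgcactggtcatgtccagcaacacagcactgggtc
Hpgds: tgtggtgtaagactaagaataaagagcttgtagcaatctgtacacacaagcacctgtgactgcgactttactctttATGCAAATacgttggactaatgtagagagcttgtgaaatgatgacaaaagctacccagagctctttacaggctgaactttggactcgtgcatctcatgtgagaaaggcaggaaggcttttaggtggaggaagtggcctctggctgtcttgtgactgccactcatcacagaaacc
Trpm5: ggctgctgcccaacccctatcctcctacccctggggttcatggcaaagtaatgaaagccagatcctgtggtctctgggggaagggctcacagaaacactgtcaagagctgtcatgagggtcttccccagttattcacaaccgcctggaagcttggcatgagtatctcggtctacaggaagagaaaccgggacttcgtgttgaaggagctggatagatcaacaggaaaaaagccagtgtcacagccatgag

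Of the transcription factors, Pou2f3, which specifies the tuft lineage, had log2 signals of 6.45, 6.59, 6.09, 6.57 and 6.96 in ICA-treated T cell mice, and of 7.35, 5.24, 6.48 and 5.97 in vehicle-treated T cell mice, in the order of mouse number. In marrow-only mice its signals were 6.21, 5.72, 5.68, 5.79 and 6.03 under ICA and 6.10, 6.12, 6.16 and 5.97 under vehicle. T cell vehicle mice 1 and 2 were the highest and the lowest of all 18 for this gene, and all 4 groups overlapped. Gfi1b, a zinc finger repressor of tuft and of megakaryocytic and erythroid cells, averaged 7.26 ± 0.12 in ICA-treated T cell mice and 7.19 ± 0.35 in vehicle-treated T cell mice, and 7.04 ± 0.18 and 7.01 ± 0.12 in marrow-only mice under ICA and under vehicle (SD, n = 5, 4, 5 and 4). Its highest signal, 7.64, was again that of T cell vehicle mouse 1.

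Among the sensors, Sucnr1, the receptor for succinate, had signals of 5.65, 5.95, 5.53, 5.82 and 5.60 in ICA-treated T cell mice, and of 6.32, 4.66, 5.42 and 4.72 in vehicle-treated T cell mice. Its signals were 5.42, 5.24, 5.13, 5.30 and 5.28 in ICA-treated marrow-only mice, and 5.71, 5.51, 5.76 and 5.51 in vehicle-treated marrow-only mice. All ICA-treated T cell mice lay above all ICA-treated marrow-only mice, and all ICA-treated marrow-only mice lay below all vehicle-treated marrow-only mice, whereas the T cell vehicle mice spanned all other groups. Trpm5, the channel that depolarises the cell after taste-type signalling, had signals of 7.59, 7.89, 7.26, 7.85 and 7.99 in ICA-treated T cell mice, and of 8.81, 6.80, 7.48 and 7.11 in vehicle-treated T cell mice. Marrow-only mice had 7.51, 6.98, 6.91, 7.35 and 7.23 under ICA and 7.48, 7.73, 7.66 and 7.66 under vehicle. Its 4 groups overlapped, although marrow-only vehicle mouse 1 was the sole mouse of its group within the range of the marrow-only ICA mice.

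Il17rb encodes a chain of the IL-25 receptor, which tuft cells carry themselves besides group 2 innate lymphoid cells. It had signals of 6.39, 7.67, 6.35, 6.76 and 7.40 in ICA-treated T cell mice, and of 7.57, 6.16, 6.93 and 6.47 in vehicle-treated T cell mice. Marrow-only mice had 6.69, 6.37, 6.13, 6.37 and 6.27 under ICA and 6.73, 6.49, 6.71 and 6.67 under vehicle. Both T cell groups were spread widely, with SDs of 0.60 under ICA and 0.61 under vehicle, against 0.21 and 0.11 in the marrow-only groups, and the T cell ranges covered the marrow-only vehicle range.

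Of the structural and signalling markers, Dclk1, the microtubule-associated kinase commonly used to stain tuft cells, had signals of 7.62, 8.05, 7.35, 7.92 and 8.12 in ICA-treated T cell mice, and of 8.71, 7.21, 7.64 and 7.35 in vehicle-treated T cell mice. Marrow-only mice had 7.36, 7.30, 7.30, 7.32 and 7.57 under ICA and 7.26, 7.78, 7.36 and 7.52 under vehicle. Avil, the actin-severing protein advillin of the tuft cell's apical tuft, averaged 7.38 ± 0.34 in ICA-treated T cell mice and 7.39 ± 0.71 in vehicle-treated T cell mice, against 7.04 ± 0.08 and 7.18 ± 0.18 in marrow-only mice under ICA and under vehicle (SD, n = 5, 4, 5 and 4). Both genes peaked in T cell vehicle mouse 1, at 8.71 for Dclk1 and 8.39 for Avil, and their groups overlapped.

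Of the effectors, Alox5, the 5-lipoxygenase that starts leukotriene synthesis, averaged 7.28 ± 0.23 in ICA-treated T cell mice and 7.21 ± 0.28 in vehicle-treated T cell mice, against 7.09 ± 0.10 and 7.18 ± 0.05 in marrow-only mice under ICA and under vehicle (SD, n = 5, 4, 5 and 4). Il25, the cytokine that tuft cells release, had signals of 6.66, 6.25, 6.33, 6.34 and 6.30 in ICA-treated T cell mice, and of 6.23, 6.51, 6.14 and 6.49 in vehicle-treated T cell mice. Marrow-only mice had 6.29, 6.58, 6.32, 6.43 and 6.26 under ICA and 6.51, 6.25, 6.46 and 6.19 under vehicle. The Il25 signal thus covered the same narrow band, 0.52 wide over all 18 mice, in every group. Whether any member lay above the array's background was not tested, and by mean signal Sucnr1, Pou2f3 and Il25 stood lowest, at percentiles 22.9, 37.5 and 40.9 of all genes.

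**Figure D1:**
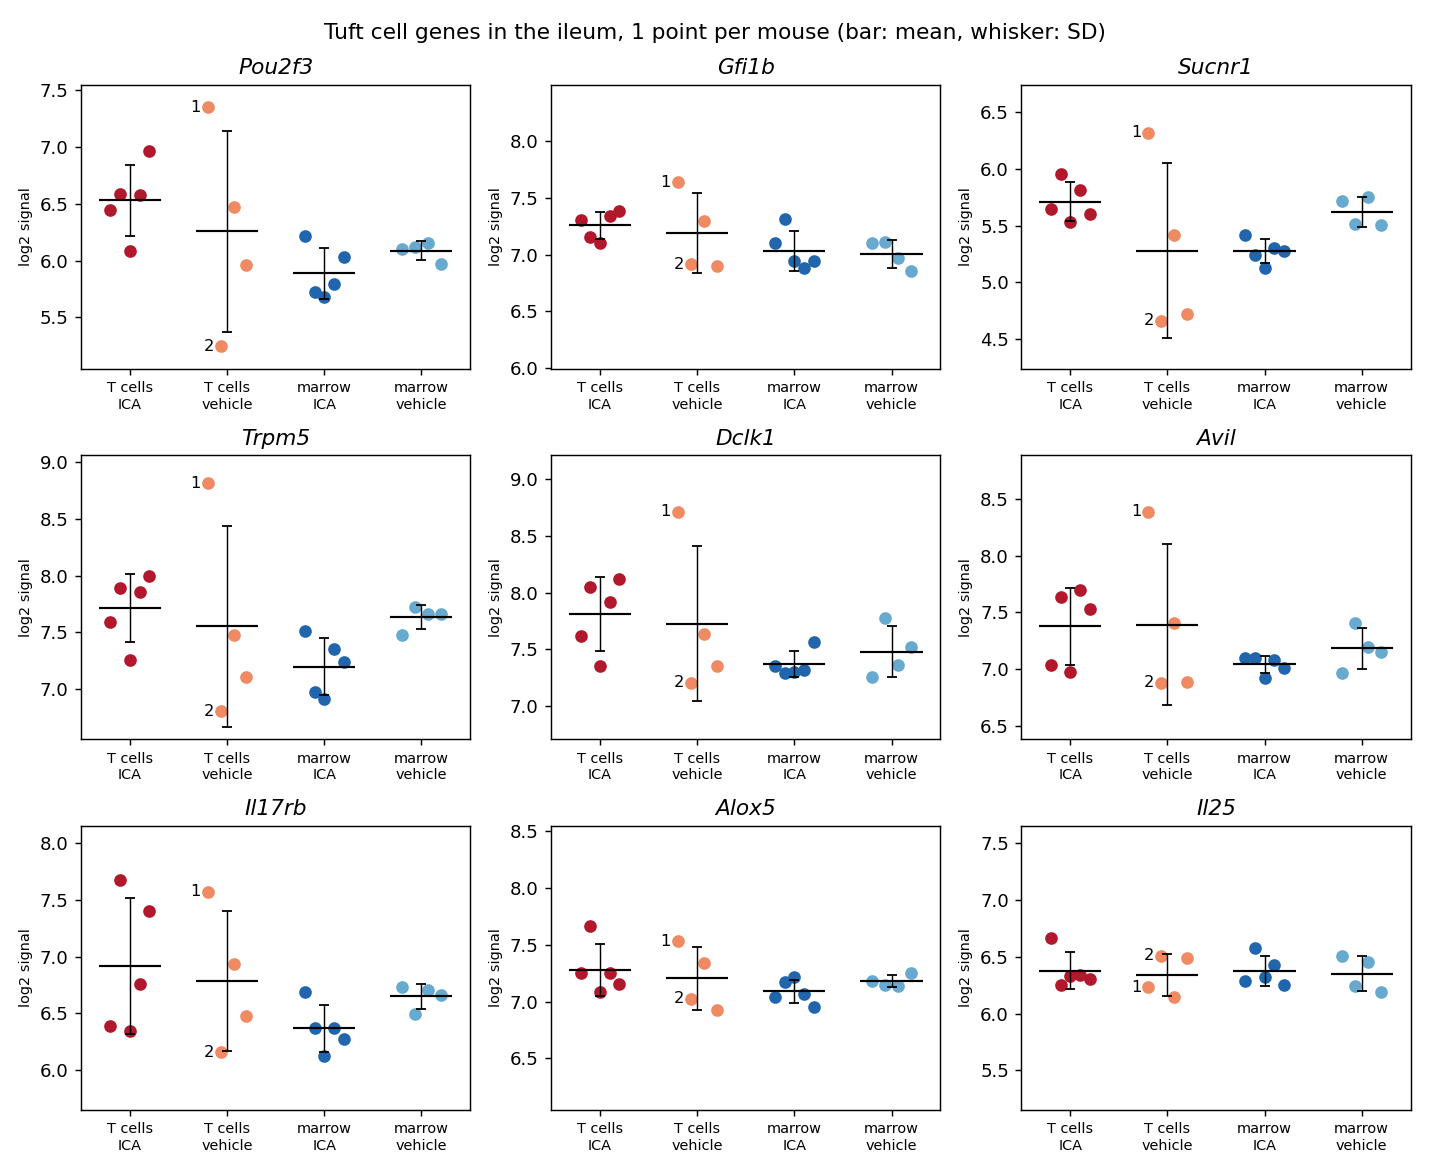
The log2 signal of the 9 measured tuft cell genes (vertical axes) by group (horizontal axis), with 1 point per mouse, a bar at the group mean and a whisker of 1 SD, and T cell vehicle mice 1 and 2 numbered. Mouse 1 tops Pou2f3 at 7.35 and Trpm5 at 8.81 and mouse 2 has their lowest values, while Il25 stays within 0.52 in all mice.

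The question of the design was what donor T cells and ICA each did to the ileum, and the members were tested in 1 limma model over the 18 arrays with p adjusted by Benjamini and Hochberg over 22180 genes. Of the 9 members, 0 passed an adjusted p of 0.05 in any of the 6 comparisons. Between T cell and marrow-only mice under vehicle, 1.47% of all genes passed, and the members' lowest adjusted p was 0.601. Their differences ran from -0.34 ± 0.23 (SE) for Sucnr1 to 0.25 ± 0.23 for Dclk1, with a median of 0.14 against 0.01 for all genes, and 0 members had an unadjusted p under 0.05. The 2 groups did not overlap for 0 members and for 10.5% of all genes.

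Under ICA the T cell mice had the higher mean for all 9 members and for 47.6% of all genes, with a median difference of 0.44 against -0.01 for all genes. Il25 differed by only 0.0028 ± 0.10, and the other members varied together between mice, so the 9 are not independent. Of all genes 3.12% passed, of the members 0, and 4 members had an unadjusted p under 0.05. Pou2f3 differed by 0.64 ± 0.25, or 1.56-fold, with a limma adjusted p of 0.184. Il17rb differed by 0.55 ± 0.24 (adjusted p = 0.253), Dclk1 by 0.44 ± 0.21 (adjusted p = 0.284) and Sucnr1 by 0.44 ± 0.21 (adjusted p = 0.300). The 95% interval of the Pou2f3 difference, unadjusted, was 0.12 to 1.16. Groups did not overlap for 1 of 9 members, Sucnr1, and for 3.33% of all genes.

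A fit of only these 10 arrays, which leaves out the widely spread T cell vehicle mice, put Pou2f3 and Sucnr1 past the threshold (adjusted p = 0.0458 and 0.0472), with 1.45% of all genes, while over all alternatives their adjusted p ran up to 0.883 and 0.930. Smooth muscle genes were also higher in T cell mice. Their list mean was 10.68 ± 0.19 in ICA-treated T cell mice and 10.26 ± 0.10 in ICA-treated marrow-only mice (SD, n = 5 each). All 8 genes of the list had the higher mean in T cell mice under ICA. In the model over all arrays 7 of the 8 passed as higher, where 3.12% of all genes passed. With that list mean as a covariate, the fitted differences of Dclk1, Trpm5, Il17rb and Avil were -0.078, -0.046, -0.11 and -0.25, and 0.0451% of all genes passed. The list mean was at least 10.43 in every T cell mouse and at most 10.36 in every marrow-only mouse. This covariate is thus hard to separate from the graft arm, and these signs do not settle a direction. With the epithelial list mean as a covariate 8 members stayed higher, and Il25 had a difference of -0.0025.

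ICA against vehicle gave 0 calls among the members in either arm. In T cell mice 0.0135% of all genes and 0 members passed, the median member difference was 0.09 against -0.01 for all genes, and the lowest adjusted p was 0.762. Sucnr1 differed most, by 0.43 ± 0.22, with a 95% interval of -0.03 to 0.89 and overlapping groups. Groups overlapped for all 9 members, against 2.89% of all genes without overlap.

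In marrow-only mice the members were lower under ICA in 7 of 9 cases, while 53.5% of all genes were higher, with a median of -0.14 against 0.01 for all genes. The test called 0.00451% of all genes and 0 members, with a lowest adjusted p of 0.714 and 0 unadjusted p under 0.05. Trpm5 differed by -0.43 ± 0.26 and Sucnr1 by -0.35 ± 0.22. Sucnr1 was the 1 member of 9 whose groups did not overlap, which held for 2.18% of all genes.

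The interaction asks whether the ICA effect differed between T cell and marrow-only mice. It was above 0 for all 9 members and for 44.8% of all genes, with a median of 0.20 against -0.02 for all genes, and 0% of all genes and 0 members passed. For Sucnr1 it was 0.78 ± 0.31 with an unadjusted p of 0.0218 and an adjusted p of 0.724, the sole member with an unadjusted p under 0.05. The interaction shares its mice with the previous comparisons, so its direction adds nothing independent to them.

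Averaged over both treatments, T cell mice differed most from marrow-only mice in Pou2f3, by 0.41 ± 0.19, Dclk1, by 0.35 ± 0.16, and Il17rb, by 0.34 ± 0.18. Pou2f3, Dclk1 and Gfi1b, the last with a smaller difference of 0.20 ± 0.09, had unadjusted p under 0.05 but limma adjusted p of 0.226, 0.213 and 0.217, and 0 members passed, against 7.21% of all genes. By group mean, ICA-treated T cell mice stood highest for 8 of 9 members, and ICA-treated marrow-only mice stood lowest for 7 of 9. Neighbours in these orders did not pass where they were compared. ICA-treated T cell mice with vehicle-treated marrow-only mice, neighbours for Trpm5, Sucnr1 and Avil, and vehicle-treated T cell mice with ICA-treated marrow-only mice, neighbours for Trpm5, Sucnr1 and Gfi1b, were not compared.

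**Figure D2:**
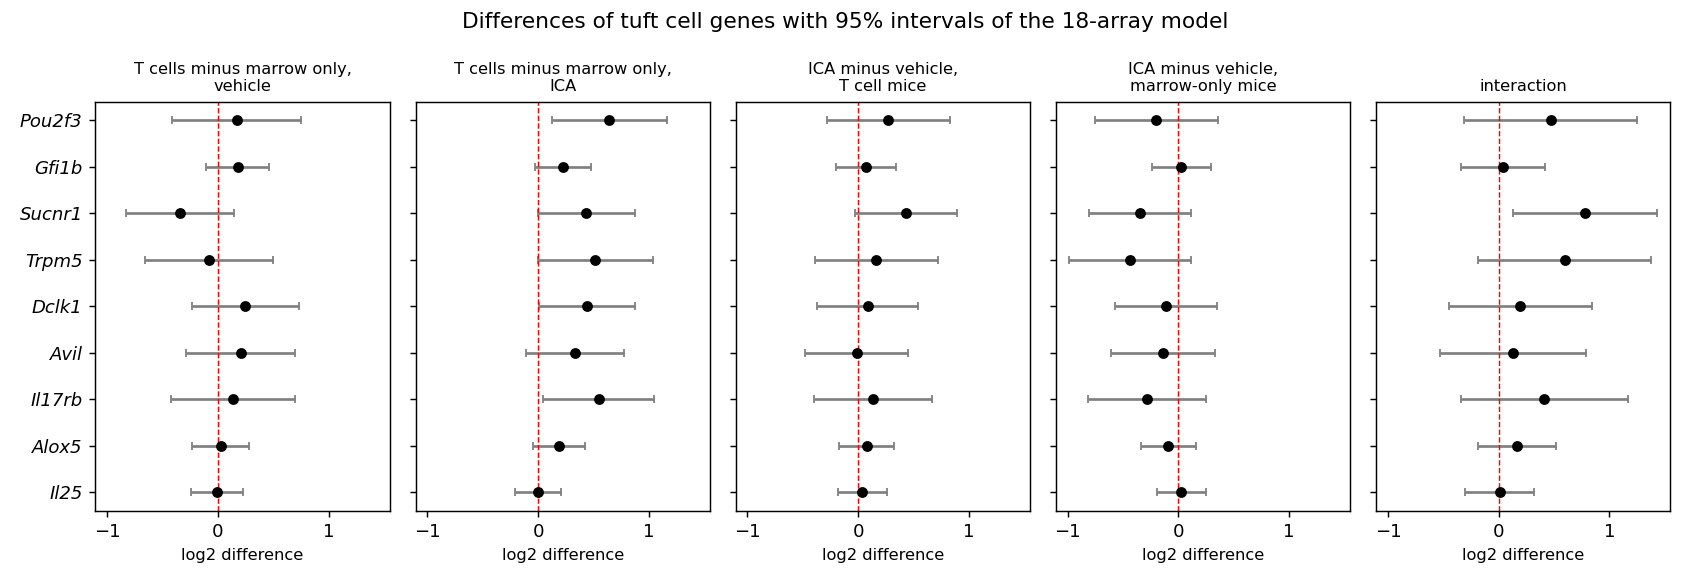
Differences of the 9 tuft cell genes in log2 (horizontal axes, 1 panel per comparison shown, dashed line at 0) with unadjusted 95% intervals of the 18-array model. The members lie right of 0 in T cell against marrow-only mice under ICA, from Il25 at 0.0028 to Pou2f3 at 0.64. In that panel only the intervals of Pou2f3, Il17rb, Dclk1 and Sucnr1, the last from 0.001, do not cross 0. In the other panels only that of Sucnr1 in the interaction does not. The comparison over both treatments has no panel, and there the intervals of Pou2f3, Dclk1 and Gfi1b do not cross 0.

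The widest contrast among the members lay between mice of 1 group. Vehicle-treated T cell mice had the largest SD of the 4 groups for all 9 members, which held for 15.9% of all genes. The median SD of the members was 0.68 in these mice, against 0.30 in ICA-treated T cell mice, 0.13 in ICA-treated marrow-only mice and 0.12 in vehicle-treated marrow-only mice. Over all genes the median SDs were 0.16 in ICA-treated T cell mice, 0.13 in vehicle-treated T cell mice, 0.16 in ICA-treated marrow-only mice and 0.13 in vehicle-treated marrow-only mice. The common model assumes 1 spread for all groups, so its errors are too small for vehicle-treated T cell mice and too large for the marrow-only groups.

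T cell vehicle mouse 1 was the highest of the 18 mice for 6 of 9 members, and it was the highest for 5.46% of all genes. Mouse 2 of the same group was the lowest for 5 of 9 members, and for 4.7% of all genes. The signal of mouse 1 exceeded that of mouse 2 by 4.30-fold for Pou2f3, 4.02-fold for Trpm5, 3.15-fold for Sucnr1, 2.84-fold for Dclk1 and 2.66-fold for Il17rb. Gfi1b and Alox5 differed less, by 1.65-fold and 1.42-fold, and for Il25 the ratio was 0.825. The signals of mouse 2 were low for Sucnr1 (4.66) and Pou2f3 (5.24), and whether background bears on these folds was not tested.

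These 2 mice were singled out by the members, so only genes outside the set add to the picture. The median difference of mouse 1 minus mouse 2 was 0.86 over 23 further tuft genes, of which 22 were higher in mouse 1, and it was -0.0045 over all genes. Epithelial genes had a median difference of -0.09, goblet cell genes of 0.02, enteroendocrine genes of -0.0007, smooth muscle genes of -0.07 and T cell genes of -0.58. It was above 0.1 in 2 other lists, at 0.27 over the type 2 genes (11 of 14 higher in mouse 1) and at 0.12 over megakaryocyte and erythroid genes (4 of 5). Macrophage and neutrophil genes had a median of -0.15, leukotriene and prostaglandin genes of -0.14 and mast cell genes of -0.11. The B cell list had 0.06 and the enteric neuron and glia list 0.02. A difference over 1 was seen in 9 of the 23 further tuft genes and in 0.433% of all genes. The labels give no batch for any mouse.

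Leaving out either of them changed calls. Without mouse 1, Sucnr1 was lower in T cell than in marrow-only mice under vehicle, by a difference of -0.69 with an adjusted p of 0.0253 where 1.47% of all genes passed, and its adjusted p ran from there to 0.888 over all alternatives. Without mouse 2, Pou2f3 was higher in T cell mice over both treatments, by 0.58 with an adjusted p of 0.0279 where 5.67% of all genes passed, in a range up to 0.939. Between T cell and marrow-only mice under vehicle, 7 of 9 members, all but Gfi1b and Sucnr1, turned sign when mouse 1 or 2 was left out. The Dclk1 difference was -0.082 without mouse 1 and 0.42 without mouse 2, and that of Pou2f3 was -0.19 and 0.51.

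**Figure D3:**
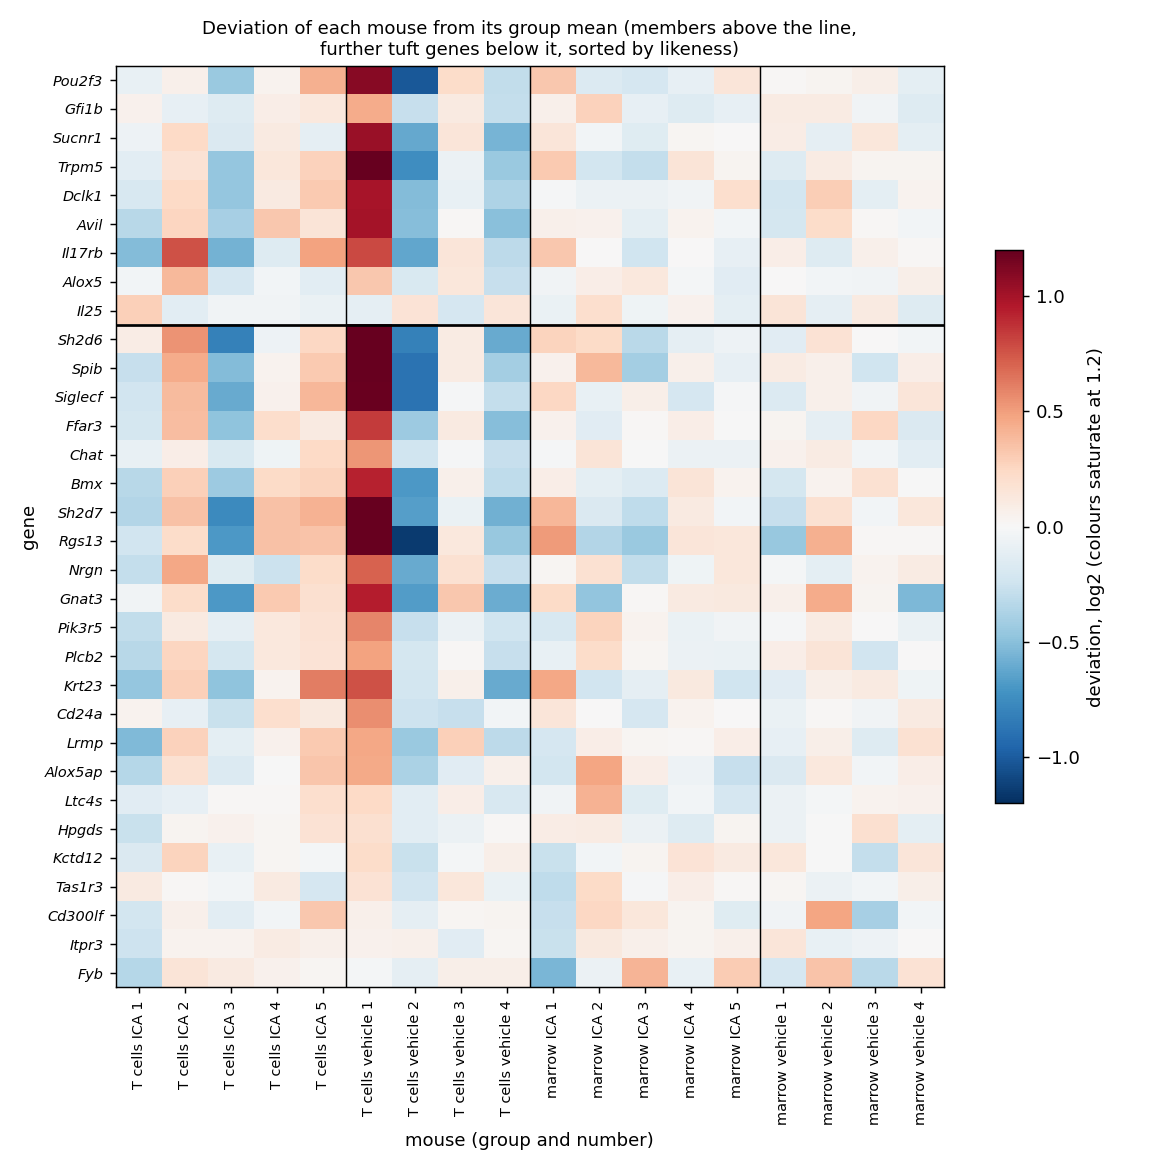
Deviation of each mouse from its group mean in log2 (colour, saturating at 1.2) for the 9 members above the line and 23 further tuft genes under it (vertical axis), by mouse (horizontal axis). The column of T cell vehicle mouse 1 is red and that of mouse 2 blue in most genes, and the marrow-only columns are pale.

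Within groups, the members other than Il25 varied together from mouse to mouse. Deviations from the group means were correlated for all 36 pairs over 18 mice, with p from 100000 permutations of mice within groups adjusted over the 36 pairs. The 28 pairs without Il25 all had a positive Pearson r, between 0.51 and 0.94 with a median of 0.76, and 19 passed an adjusted p of 0.05. By Spearman's rho 12 of them passed. Dclk1 and Avil, both of the cytoskeleton, had the highest r, 0.94, with a rho of 0.85 (permutation adjusted p = 0.00498 and 0.0133). Trpm5 and Pou2f3 had the next highest r, 0.93, with a rho of 0.84 (permutation adjusted p = 0.00144 and 0.00378). The highest rho, 0.85, was that of Trpm5 and Avil, with an r of 0.93 (permutation adjusted p = 0.00444 and 0.00204).

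The correlations leaned on the outlying mice but did not vanish without them. With the 2 mice farthest from the median of the first gene left out, most often T cell vehicle mice 1 and 2, the 28 pairs had r between 0.15 and 0.85 with a median of 0.56. Within the 9 T cell mice the median r was 0.87, between 0.60 and 0.99, and 22 pairs passed an exact permutation test with adjusted p under 0.05. Within the 9 marrow-only mice the median r was 0.14, between -0.78 and 0.80, and 0 pairs passed the exact permutation test, with a lowest adjusted p of 0.344. The difference between the arms in correlation was not tested, and the marrow-only mice varied less in these genes to begin with.

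Il25 did not follow the others. Its 8 pairs had r between -0.53 and -0.12 over the 18 mice, and 0 passed by Pearson's r. The pair with Dclk1 passed by rank, with an r of -0.53 and a rho of -0.63 (permutation adjusted p = 0.0693 and 0.0364). Alox5 was the least tied of the other members, with an r of 0.66 to the mean of the other members, against 0.92 for Trpm5 and Sucnr1.

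**Figure D4:**
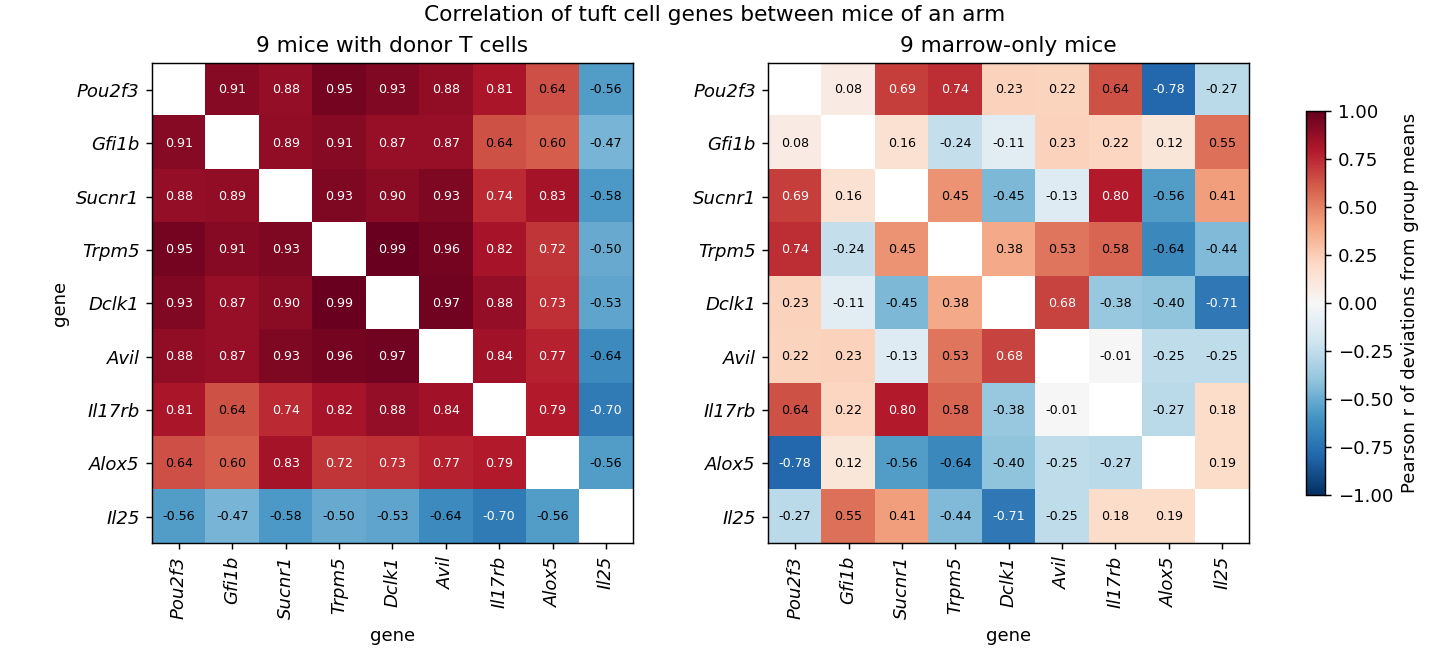
Pearson correlation (colour and printed value) of deviations from group means between each pair of the 9 members (both axes), over the 9 mice with donor T cells on the left and the 9 marrow-only mice on the right. With T cells all pairs without Il25 are positive, up to 0.99, and in marrow-only mice signs are mixed, from -0.78 to 0.80.

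Alox5 shows what the choice of probe set can do. Its other probe set, with a mean of 6.96 against 7.19, had an r of 0.94 to the mean of the other members and of 0.91 without T cell vehicle mouse 1. There mouse 1 had a signal of 8.07 and mouse 2 of 6.29, against 7.53 and 7.03 on the probe set used. The 2 probe sets disagree on how closely Alox5 follows the tuft genes, and with their mean in its place Alox5 differed by 0.39 between T cell and marrow-only mice under ICA (limma adjusted p = 0.203). The other probe set alone averaged 7.22 ± 0.34 in ICA-treated T cell mice and 6.64 ± 0.23 in ICA-treated marrow-only mice (SD, n = 5 each). On the probe set used these means were 7.28 and 7.09. The difference on the other probe set alone was not tested.

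Genes outside the set were ranked by their Pearson r over 18 mice with the mean standardised deviation of the members, as a description. The 10 highest were Sh2d6 (0.97), Spib (0.95), Siglecf (0.93), Ffar3 (0.92), Colca2 (0.92), Chat (0.92), Bmx (0.92), Sh2d7 (0.92), Strip2 (0.92) and Defb1 (0.91). Of these, 7 were in the list of further tuft genes, and Colca2, Strip2 and Defb1 were in no list. Sh2d6 and Sh2d7 are SH2 domain adaptors, Spib an ETS transcription factor, Siglecf a sialic acid receptor also found on eosinophils, Ffar3 a receptor of short-chain fatty acids, Chat the enzyme that makes acetylcholine, Bmx a kinase and Defb1 a beta-defensin. Without T cell vehicle mouse 1 the r of the 10 genes ran from 0.81 to 0.95. Defb1 had the widest gap, with 8.00 in T cell vehicle mouse 1 and 4.72 in mouse 2.

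The further tuft genes varied with the members. The list's median r was 0.80 and 17 of 23 lay above 0.5, which held for 3.003% of all genes. Other lists had lower medians. The median r was -0.09 for the epithelial, -0.03 for the enteroendocrine, -0.10 for the goblet cell, -0.10 for the mast cell, -0.21 for the macrophage and neutrophil, -0.22 for the T cell, 0.01 for the B cell, 0.16 for the enteric neuron and glia, 0.26 for the megakaryocyte and erythroid and 0.37 for the smooth muscle list. Within these lists the genes most like the members were Kit (0.77), a receptor of mast and pacemaker cells, and the keratin gene Krt18 (0.68).

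Some of the further tuft genes passed the test that the members did not. The list, chosen with earlier results of these data known, had a median difference of 0.32 over both treatments, against -0.0013 for all genes. There 6 of 23 passed as higher and 0 as lower, where 7.21% of all genes passed: Lrmp by 0.57 ± 0.12, Alox5ap by 0.54 ± 0.12, Fyb by 0.51 ± 0.11, Hpgds by 0.44 ± 0.07, Kctd12 by 0.39 ± 0.08 and Ltc4s by 0.32 ± 0.08 (limma adjusted p between 0.000363 and 0.0178). Hpgds, the haematopoietic prostaglandin D synthase, averaged 7.34 in ICA-treated T cell mice and 7.42 in vehicle-treated T cell mice, against 6.95 and 6.94 in marrow-only mice under ICA and under vehicle. It rose under each treatment, by 0.40 ± 0.09 under ICA and 0.48 ± 0.10 under vehicle (limma adjusted p = 0.0162 and 0.0179). Lrmp also rose under ICA, by 0.61 ± 0.16, and Cd300lf, a myeloid and tuft cell receptor, under vehicle, by 0.63 ± 0.15 (limma adjusted p = 0.0438 and 0.0384).

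None of these 7 genes was among the 10 most like the members. Their r to the members was 0.70 for Lrmp, 0.61 for Alox5ap, 0.53 for Ltc4s, 0.48 for Hpgds, 0.42 for Kctd12, 0.20 for Cd300lf and -0.10 for Fyb. Leukocytes also express Alox5ap, Fyb, Hpgds, Ltc4s, Lrmp and Cd300lf. Over both treatments 6 of 12 macrophage and neutrophil genes and 6 of 8 T cell genes passed as higher and 0 as lower, where 7.21% of all genes passed. The macrophage and neutrophil list mean was 8.01 in ICA-treated T cell mice and 8.20 in vehicle-treated T cell mice, against 7.80 and 7.62 in marrow-only mice under ICA and under vehicle. The T cell list mean was 8.07 and 8.03, against 7.39 and 6.99, in the same order. The part of leukocytes in the result was not tested. Of 10 mast cell genes, 2 passed as lower in T cell mice under vehicle, where 1.47% of all genes passed. Mcpt1 had a difference of -2.44 and Mcpt2 one of -2.41 (limma adjusted p = 0.0127 and 0.0244), while Hdc had a difference of 0.43 and did not pass. Under ICA 9 of these 10 had the higher mean in T cell mice, with a median difference of 0.21 and 0 called, where 3.12% of all genes passed.

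The list of 14 measured type 2 genes, downstream and upstream of IL-25, held 1 that passed over both treatments, a share near the 7.21% of all genes. Klrg1, a receptor of group 2 innate lymphoid cells and of effector T cells, rose by 0.47 ± 0.13 in T cell mice (limma adjusted p = 0.0265). The IL-13 gene Il13 differed by 0.16 ± 0.08 (limma adjusted p = 0.278), and the goblet cell gene Retnlb, an IL-13 target, by -0.82 ± 0.62 (limma adjusted p = 0.528). Nmur1, the neuromedin U receptor of group 2 innate lymphoid cells, had an r of 0.82 to the members. Clca1, an IL-13 target of goblet cells, had one of 0.71, and the list's median r was 0.31. Il13 and Clca1 were named after their values were seen.

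Of 10 measured leukotriene and prostaglandin enzymes and receptors outside the tuft set, 4 passed as higher and 0 as lower in T cell mice over both treatments, where 7.21% of all genes passed. The median difference of the 10 was 0.10, against -0.0013 for all genes. Hpgd, which breaks down prostaglandins, rose by 0.62, Ptgs2, the inducible cyclooxygenase, by 0.52, and the cysteinyl leukotriene receptor genes Cysltr1 and Cysltr2 by 0.47 and 0.37 (limma adjusted p between 0.00078 and 0.026). The median r of these 10 to the members was -0.12, and 0 had an r above 0.5. Neither this list nor the type 2 list held a gene that passed between ICA and vehicle in either arm.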

How the data were processed

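Ileal RNA of 18 mice was measured on Affymetrix whole-transcript arrays. The values the authors deposited were read as log2 signals, as their range fits, though no log base is given in the sources used here. Partek, GenomeStudio and RMA are named in the submitters' processing notes, without versions. Each mouse is labelled a biological replicate.

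Of 41345 probe sets, 23521 had 1 gene symbol, 1814 several and 16010 none. Each of 22180 genes was read from its probe set with the highest mean. In R 4.3.3 with limma 3.58.1, 1 model with 4 group means was fitted (14 residual degrees of freedom, trended prior), two-sided, and a gene was called at a Benjamini-Hochberg adjusted p under 0.05. On simulated data of this design, the model recovered 44.5% of genes changed by 0.5 log2 for T cells under vehicle. It recovered 72% under ICA and 10% in the interaction. The changed genes were drawn at random, each with its own SD held equal in all groups. The members' median SD in vehicle-treated T cell mice was 0.68, against 0.13 for all genes, so these rates are not those of the members. A member that did not pass may still differ. Pair correlations used numpy 2.4.6 in Python 3.11.15, with 100000 permutations within groups, or all 2880 arrangements within an arm. Figures used matplotlib 3.10.9.

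All members are named. Of each other list, the called genes, or else up to 2 with the smallest p, are named, with the list's extremes and the 10 genes most like the members. The members and the 14 lists (162 entries, 146 measured) were chosen with earlier results of these data known. Mouse numbers were checked for pairing: of 25 same-numbered pairs across groups, 3 had deviations correlated above 0.1 (mean r 0.013). Of 96 differently numbered pairs 15 did (mean r -0.0031), so the numbers were not taken as pairs. Alternatives were a replicate block, each mouse left out, other arrays in the fit, 2 normalizations, 2 low-value filters, averaged probe sets, 2 other priors, array weights, 2 list means as covariates and, chosen after seeing the data, the omission of 2 arrays. The number of arrays limits the precision.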

Additional observations from a re-analysis of the deposited data

Results flagged for a closer look

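Each of the 36 sets of 1 member in 1 group was examined for a mouse far from the others, and 2 sets held one, where chance gives about 1 in 20. Dclk1 in marrow-only ICA mouse 5 had a log2 signal of 7.57, and the nearest mouse of that group had 7.36. Il25 in T cell ICA mouse 1 had 6.66, and the nearest mouse of that group had 6.34. The array of that T cell ICA mouse had the largest deviations over all genes (SD 0.245).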

How the results depend on the processing

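The number of members called stayed at 0 in all 6 comparisons under the normalizations, filters, priors, array weights, covariates and mean of probe sets that were tried, except as follows: 2 for donor T cells under ICA (T cell minus marrow-only mice) in a fit of only those groups (1.45% of all genes called), and, over each mouse left out in turn, 0 to 1 under vehicle (Sucnr1 without T cell vehicle mouse 1, with 1.47% of all genes) and 0 to 1 over both treatments (Pou2f3 without T cell vehicle mouse 2, with 5.67%). The filters also left members untested: Sucnr1 below the 25th percentile, and Sucnr1, Pou2f3, Il25 and Il17rb below the median, so 8 and 5 members were tested there. Those fits, and the widths of the T cell vehicle group, limit how firmly the members' differences can be read. Mouse number as a replicate block gave 0 members called in every comparison and changed no member call. Same-numbered mice did not deviate together (mean r 0.013 over 25 pairs, against -0.0031 over 96 differently numbered pairs), so the numbers carry no known pairing. Over the alternatives the share of all genes called ran from 0.131% to 4.84% for T cells under vehicle, from 0.0451% to 7.64% under ICA and from 0.189% to 14.6% over both treatments. In ICA against vehicle it ran from 0.00451% to 0.221% in T cell mice and from 0% to 0.825% in marrow-only mice.

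Of 93 turns of sign in a member's difference, 60 came with single mice left out, 20 with the smooth muscle list mean as a covariate and 13 with other settings. The smooth muscle list mean stood higher in T cell mice. As a covariate, for donor T cells under vehicle, it gave Dclk1 -0.097, Il25 0.057, Pou2f3 -0.0092, Alox5 -0.073, Il17rb -0.30 and Avil -0.18. Under ICA it gave Dclk1 -0.078, Trpm5 -0.046, Il17rb -0.11 and Avil -0.25, and over both treatments Dclk1 -0.088, Trpm5 -0.25, Il25 0.079, Alox5 -0.015, Sucnr1 -0.14, Il17rb -0.20 and Avil -0.21. For ICA in T cell mice it gave Dclk1 -0.062 and Il17rb -0.057, and in the interaction Avil -0.074. Array weights gave Il25 0.0069 for donor T cells under vehicle, -0.014 under ICA, -0.0010 for ICA in T cell mice and -0.021 in the interaction, Avil 0.038 for ICA in T cell mice and Gfi1b -0.017 for ICA in marrow-only mice. Without the 2 most deviating arrays, a setting chosen after seeing the data, Il25 was -0.090 for donor T cells under ICA, -0.037 for ICA in T cell mice and -0.082 in the interaction, and Avil was 0.071 for ICA in T cell mice. The epithelial covariate gave Il25 -0.0025 for donor T cells under ICA, median centring Avil 0.0036 for ICA in T cell mice, and a further quantile normalization Il25 0.0037 for donor T cells over both treatments. The cause of these turns was not tested.

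With each mouse left out in turn, differences for donor T cells under vehicle ran from -0.082 to 0.42 for Dclk1, -0.50 to 0.17 for Trpm5, -0.064 to 0.058 for Il25, -0.19 to 0.51 for Pou2f3, -0.084 to 0.12 for Alox5, -0.13 to 0.34 for Il17rb and -0.13 to 0.38 for Avil. Under ICA they ran from -0.069 to 0.053 for Il25, and over both treatments from -0.039 to 0.031 for Il25 and -0.13 to 0.15 for Sucnr1. For ICA in T cell mice they ran from -0.088 to 0.41 for Dclk1, -0.084 to 0.59 for Trpm5, -0.037 to 0.090 for Il25, -0.064 to 0.64 for Pou2f3, -0.026 to 0.22 for Gfi1b, -0.021 to 0.18 for Alox5, -0.079 to 0.39 for Il17rb and -0.18 to 0.32 for Avil. For ICA in marrow-only mice they ran from -0.029 to 0.076 for Il25 and -0.042 to 0.066 for Gfi1b, and in the interaction from -0.061 to 0.066 for Il25, -0.053 to 0.19 for Gfi1b and -0.044 to 0.46 for Avil.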
